A study of Mus musculus with 8 samples.

Results

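The MS4A genes encode small proteins that cross the cell membrane several times, and they lie side by side on 1 chromosome. The founding members mark other leukocytes: *Ms4a1* encodes CD20 of B cells and *Ms4a2* a chain of the high-affinity IgE receptor of mast cells. Several others are known from macrophages, where MS4A proteins sit beside immune receptors in the membrane, and variants at the human locus are linked to Alzheimer's disease and to the level of soluble TREM2. The 10 genes described here are *Ms4a4a*, *Ms4a4b*, *Ms4a4c*, *Ms4a4d*, *Ms4a6b*, *Ms4a6c*, *Ms4a6d*, *Ms4a7*, *Ms4a8a* and *Ms4a14*. They were taken by symbol from the 21859 genes of the count tables, all 10 were found, and all 10 passed the filter on low counts that left 15077 genes.

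RNA was sequenced from whole aortas of 4 *ApoE*-/- (ApoE knockout) and 4 wild-type (WT) male mice, 40 weeks old and on a normal chow diet. *ApoE*-/- mice lack apolipoprotein E throughout the body, clear lipoproteins poorly and form atherosclerotic plaques, in which macrophages take up lipid and become foam cells. The comparison asks which transcripts differ between atherosclerosis-prone and control aortas. Each mouse gave 1 library, and the labels name no further agent or allele in either group. The libraries held 18375898 to 23940156 read pairs counted on genes. Expression is given as CPM (read pairs on a gene scaled to library size) after TMM normalization, and the log2 fold change as *ApoE*-/- over WT with its standard error (SE).

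*Apoe* itself had 14.7 to 36.3 CPM in *ApoE*-/- mice and 536 to 857 CPM in WT mice, so every library matched its labelled genotype. The 12 pan-macrophage genes (such as *Lyz2*, *Itgam* and *Fcgr1*) summed to 522 to 2152 CPM in *ApoE*-/- and 420 to 504 CPM in WT aortas. Replicate 4 was the highest and replicate 1 the lowest of the *ApoE*-/- mice. Replicate 1 also had the lowest sum of 8 smooth muscle genes of all mice, 4803 CPM against 10671 to 20054 CPM in WT. Of 8 cardiac muscle genes, 7 lay below WT without overlap (3.3% of all genes), with a median log2 fold change of -2.61 over the 8, and DESeq2 called 5 as lower (1.45% of all genes). The eighth, *Ryr2*, was the most abundant and overlapped (log2 fold change -0.02 ± 0.31 SE). *Myl4*, a myosin light chain, had 12.9 CPM in *ApoE*-/- replicate 1 and 3.72 to 4.95 CPM in the other 3, against 21.0 to 56.6 CPM in WT. The 8 endothelial genes all had negative log2 fold changes (median -0.38), and *Cdh5*, *Kdr* and *Emcn* lay below WT without overlap and were called as lower by DESeq2 (*Cdh5* is named outside the rule, after its values were seen). The 7 adipocyte genes also all had negative log2 fold changes (median -0.48), and DESeq2 called 0 of them. Their sum was 2019 to 7356 CPM in *ApoE*-/- mice, highest in replicate 4, and 4673 to 9454 CPM in WT mice. edgeR called 0 genes of the cardiac muscle, endothelial and adipocyte lists. The part of these tissue differences in the results below was not tested. In whole tissue, more macrophages and more RNA per macrophage cannot be told apart.

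The genes form a dense cluster on mouse chromosome 19. In the GENCODE M21 annotation of GRCm38, the 10 genes run from base 11067471 (*Ms4a8a*) to base 11604849 (*Ms4a6d*), a stretch of 537 kb, and 9 of them lie within the last 304 kb. *Ms4a8a*, *Ms4a14*, *Ms4a7* and *Ms4a6d* are on the minus strand. *Ms4a4a*, *Ms4a4c*, *Ms4a4b*, *Ms4a6c*, *Ms4a6b* and *Ms4a4d* follow each other on the plus strand between them. Their longest coding transcripts have 6 or 7 coding exons and 651 to 870 coding bases, except that of *Ms4a14* with 3696.

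Some of the genes are close copies, which matters for how reads are assigned. The coding sequences of *Ms4a4b* and *Ms4a4c* were 91.7% identical, those of *Ms4a4c* and *Ms4a4d* 85.7%, and those of *Ms4a6b* and *Ms4a6d* 80.7%. Below are, for 3 pairs, the longest coding stretches shared letter for letter, since a read of 50 bases inside them matches both genes. For *Ms4a4c* and *Ms4a4d* that stretch had 57 bases, for *Ms4a6c* and *Ms4a6d* 44 and for *Ms4a4b* and *Ms4a4d* 35. The first, of 127 bases, spans exons 5 and 6 of both *Ms4a4b* (chr19:11459161-11461265, plus strand) and *Ms4a4c* (chr19:11419001-11421266, plus strand). The second, of 81 bases, spans exons 3 and 4 of *Ms4a6b* (chr19:11520438-11521703, plus strand) and exons 2 and 3 of *Ms4a6d* (chr19:11601932-11603193, minus strand). The third, of 55 bases, lies in exon 6 of *Ms4a6b* (chr19:11526749-11526803) and in exon 5 of *Ms4a6c* (chr19:11478217-11478271).
Ms4a4b and Ms4a4c: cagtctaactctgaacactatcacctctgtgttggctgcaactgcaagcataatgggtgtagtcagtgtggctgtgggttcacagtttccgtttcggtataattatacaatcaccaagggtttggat
Ms4a6b and Ms4a6d: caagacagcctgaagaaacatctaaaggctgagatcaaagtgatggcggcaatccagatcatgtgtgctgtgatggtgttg
Ms4a6b and Ms4a6c: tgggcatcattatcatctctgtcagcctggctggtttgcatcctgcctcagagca

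Stretches of 50 bases that also occur on the same strand in a transcript of another gene made up 11.3% of *Ms4a6c*, 8.19% of *Ms4a4c*, 5.89% of *Ms4a6b*, 4.19% of *Ms4a4b*, 2.69% of *Ms4a6d* and 0.546% of *Ms4a4d*. None was found for *Ms4a4a*, *Ms4a7*, *Ms4a8a* and *Ms4a14*. Read pairs that aligned to several places made up 11.8% to 14.3% of a library and were not counted on genes. The values of the *Ms4a4* and *Ms4a6* copies are therefore uncertain to that extent. A gene on the opposite strand overlaps *Ms4a4c* (*Gm5692*), *Ms4a6b* (*Gm19261*) and *Ms4a6c* (*BE692007*), and these 3 are not analysed here.

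**Figure D1:**
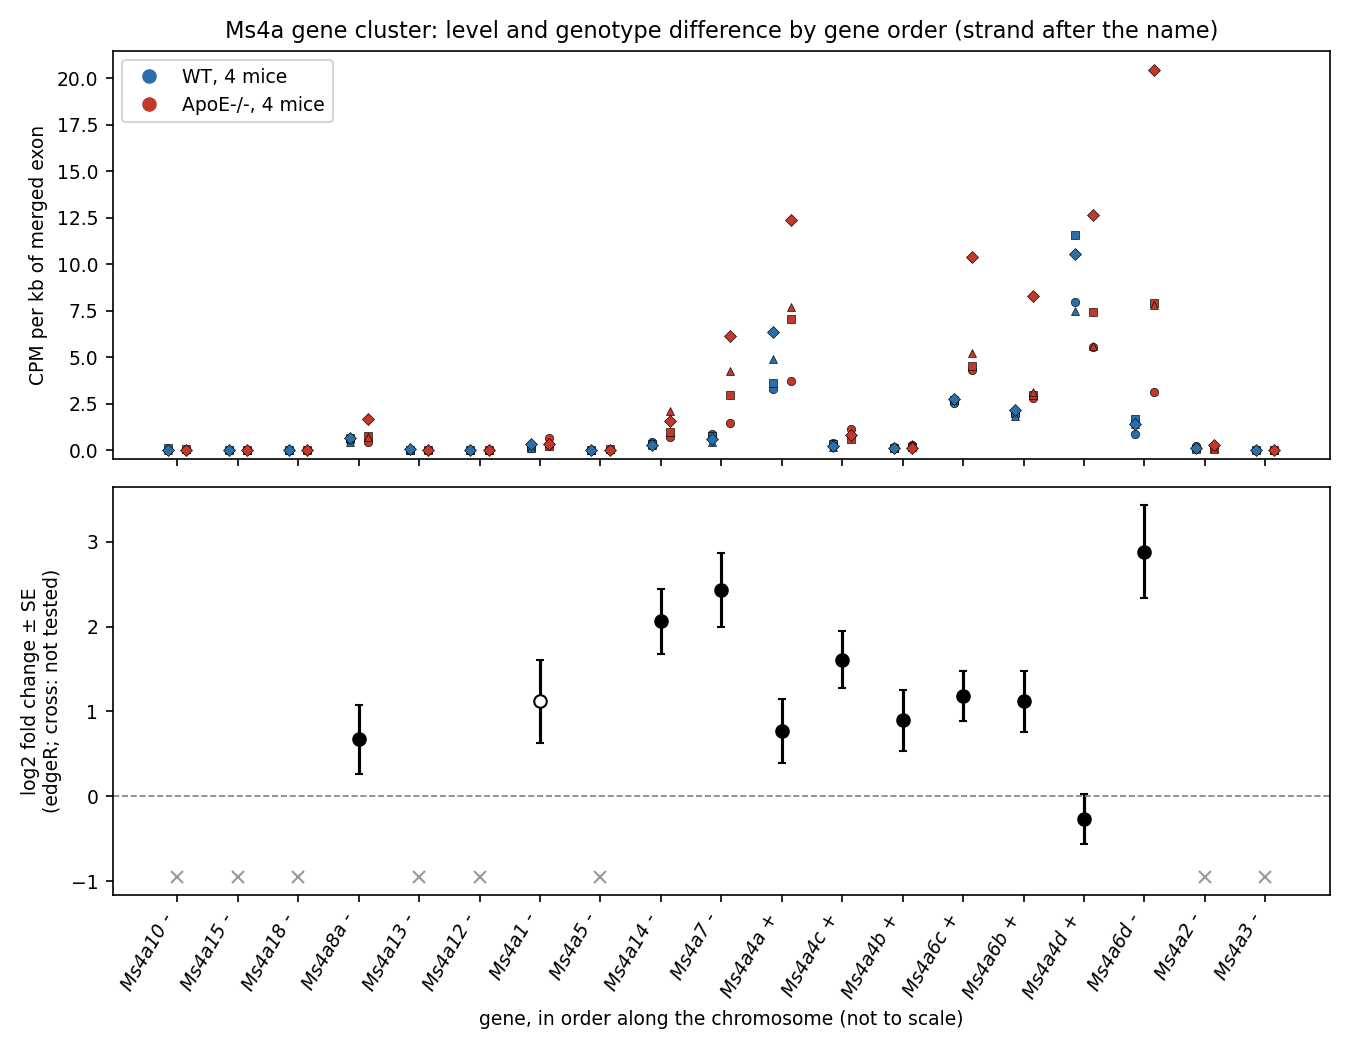
Level and genotype difference of 19 Ms4a genes in their order along the chromosome. The upper panel shows CPM per kb of merged exon in each mouse (blue, WT; red, *ApoE*-/-), the lower panel the edgeR log2 fold change with its SE for the 11 genes tested, with a filled point for the 10 genes described. The genes with levels above 1 CPM per kb lie between *Ms4a8a* and *Ms4a6d*, and *Ms4a6d*, *Ms4a7* and *Ms4a14* have the 3 largest differences.

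Per kb of exon, *Ms4a4d* was the most abundant of the 10 genes in WT aorta, and *Ms4a6d* had the highest mean in *ApoE*-/- aorta. In WT mice the mean level was 9.41 ± 1.97 CPM per kb (SD, n = 4) for *Ms4a4d*, 4.53 ± 1.40 for *Ms4a4a*, 2.69 ± 0.104 for *Ms4a6c*, 1.98 ± 0.137 for *Ms4a6b* and 1.33 ± 0.327 for *Ms4a6d*. *Ms4a7*, *Ms4a8a*, *Ms4a14*, *Ms4a4c* and *Ms4a4b* followed in that order, from 0.681 to 0.123 CPM per kb. Neighbours in this order did not overlap between mice, except *Ms4a6d* with *Ms4a7*, *Ms4a7* with *Ms4a8a*, and *Ms4a14* with *Ms4a4c*. In *ApoE*-/- mice the order was *Ms4a6d* (9.82 ± 7.44 CPM per kb, SD, n = 4), *Ms4a4d* (7.80 ± 3.33), *Ms4a4a* (7.72 ± 3.55), *Ms4a6c* (6.11 ± 2.88), *Ms4a6b* (4.31 ± 2.67), *Ms4a7* (3.69 ± 1.98), *Ms4a14* (1.33 ± 0.640), *Ms4a8a* (0.883 ± 0.527), *Ms4a4c* (0.844 ± 0.224) and *Ms4a4b* (0.229 ± 0.105). Here only *Ms4a4c* and *Ms4a4b* were neighbours without overlap. These levels depend on the annotated exon length, which runs from 0.836 kb for *Ms4a4a* to 8.78 kb for *Ms4a4b*.

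The make-up of the family differed between genotypes. Of the summed CPM per kb of the 10 genes, *Ms4a4d* held 37.9% to 48.9% in the WT mice and 14.9% to 23.6% in the *ApoE*-/- mice. *Ms4a6d* held at most 7.09% in WT and 13.3% to 27.5% in *ApoE*-/- mice, and *Ms4a7* 2.26% to 4.67% and 6.26% to 11.2%. These shares of *Ms4a4d*, *Ms4a6d* and *Ms4a7* did not overlap between genotypes, and those of the other 7 genes did. A share depends on the other members, so a lower share is not a lower level.

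Across the 10 genes, 9 had a higher fitted level in *ApoE*-/- mice and 1 (*Ms4a4d*) a lower one, with a median log2 fold change of 1.15 against 0.05 over all 15077 tested genes. None of the 10 had an adjusted p under 0.05 in edgeR's quasi-likelihood F test, which called 0.464% of all genes. An unadjusted p under 0.05 with a higher level was reached by 7 members, against 7.19% of all genes. DESeq2 called 5 members as higher (*Ms4a6d*, *Ms4a7*, *Ms4a14*, *Ms4a4c* and *Ms4a6c*), against 2.84% of all genes with an adjusted p, and limma-voom called 0. All 4 *ApoE*-/- values lay above all 4 WT values for 6 members, which are these 5 and *Ms4a6b*, against 5.41% of all genes.

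**Figure D2:**
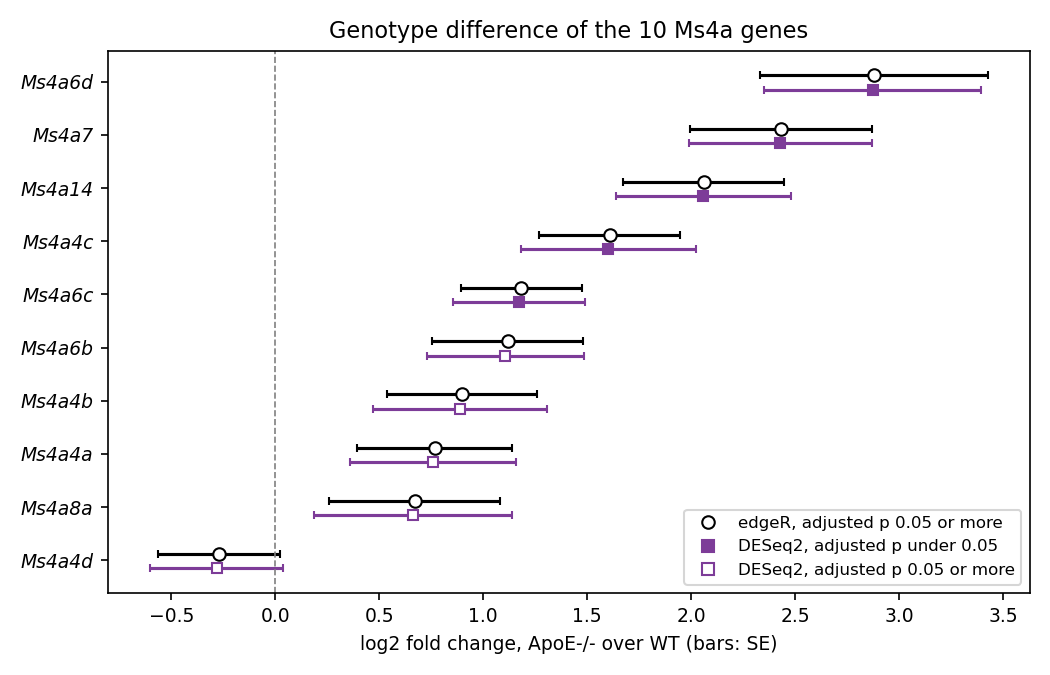
Log2 fold change of each gene, *ApoE*-/- over WT, with SE bars, from edgeR (circles) and DESeq2 (squares, filled where the adjusted p was under 0.05). Both tools gave nearly the same sizes, from 2.88 for *Ms4a6d* to -0.27 for *Ms4a4d* in edgeR, and differed in the calls: 0 members by edgeR and 5 by DESeq2.

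*Ms4a6d* had the largest difference in the family. Its protein is known from macrophages, where it has been tied to control of the inflammasome. Its level was 5.40, 13.7, 13.5 and 35.5 CPM in *ApoE*-/- replicates 1 to 4, and 1.51, 2.86, 2.44 and 2.44 CPM in the WT replicates. The genotypes did not overlap, and the *ApoE*-/- mice spread from 2.34 to 15.4 times the WT mean, with replicate 4 far above and replicate 1 nearest to WT. The log2 fold change was 2.88 ± 0.55 (SE), with adjusted p-values of 0.0651 from edgeR and 6.72e-06 from DESeq2. Without *ApoE*-/- replicate 4 it was 2.23 ± 0.38 (SE, adjusted p = 0.0818 by edgeR).

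*Ms4a7*, widely used as a marker of macrophages that come from blood monocytes or lie at tissue borders, had 6.53, 13.1, 18.9 and 27.3 CPM in the *ApoE*-/- mice. The WT mice had 3.95, 3.46, 1.99 and 2.73 CPM. Every *ApoE*-/- mouse was above every WT mouse, by 2.15 to 8.99 times the WT mean. The log2 fold change was 2.43 ± 0.44 (SE), with adjusted p-values of 0.0592 from edgeR and 6.25e-06 from DESeq2. *Ms4a14*, the neighbour of *Ms4a7* on the same strand, had 2.76, 3.94, 8.63 and 6.29 CPM in *ApoE*-/- and 1.70, 1.36, 0.997 and 1.10 CPM in WT mice. Its genotypes did not overlap either, and here replicate 3, not replicate 4, was the highest. Its log2 fold change was 2.06 ± 0.39 (SE), with adjusted p-values of 0.0634 from edgeR and 1.02e-04 from DESeq2.

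*Ms4a4c* was a gene of low level, with 23 to 48 read pairs in the *ApoE*-/- and 5 to 14 in the WT libraries. It had 1.95, 1.01, 1.57 and 1.39 CPM in *ApoE*-/- and 0.643, 0.609, 0.277 and 0.383 CPM in WT mice. The groups were apart, and unlike the genes above the highest mouse was *ApoE*-/- replicate 1. The log2 fold change was 1.61 ± 0.34 (SE), with adjusted p-values of 0.0812 from edgeR and 0.00589 from DESeq2.

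The neighbours *Ms4a6b* and *Ms4a6c* varied together and were very even among WT mice. *Ms4a6c* had 8.81, 9.27, 10.7 and 21.3 CPM in *ApoE*-/- and 5.23, 5.48, 5.71 and 5.65 CPM in WT mice. *Ms4a6b* had 12.6, 13.3, 14.1 and 37.3 CPM in *ApoE*-/- and 8.67, 8.94, 8.25 and 9.72 CPM in WT mice. For both genes 3 *ApoE*-/- mice lay close together above WT, at 1.41 to 1.94 times the WT mean, and replicate 4 stood apart at 3.86 times (*Ms4a6c*) and 4.19 times (*Ms4a6b*). The log2 fold change was 1.18 for *Ms4a6c* (SE 0.29, edgeR adjusted p = 0.121, DESeq2 adjusted p = 0.00895). It was 1.12 for *Ms4a6b* (SE 0.36, edgeR adjusted p = 0.246, DESeq2 adjusted p = 0.0711).

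**Figure D3:**
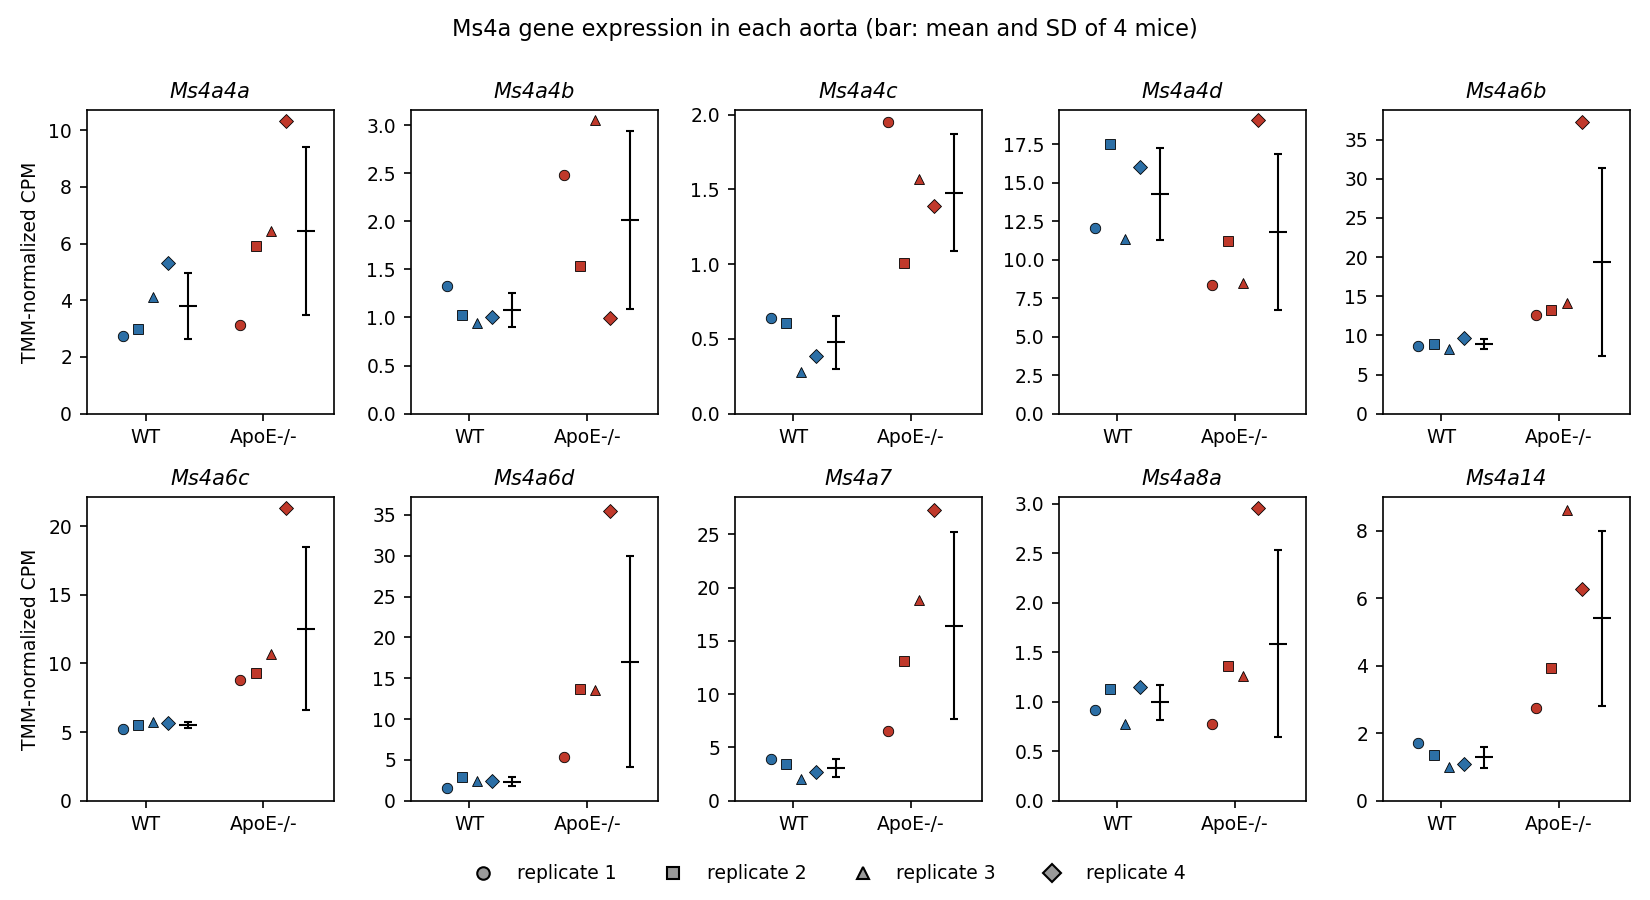
CPM of each of the 10 genes in each aorta, with the mean and SD of the 4 mice of a genotype (symbols mark the replicate number, and the labels give no pairing of mice). *ApoE*-/- values lie above all WT values for *Ms4a4c*, *Ms4a6b*, *Ms4a6c*, *Ms4a6d*, *Ms4a7* and *Ms4a14*, and *ApoE*-/- replicate 4 is the highest mouse for 7 genes.

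The other 4 genes overlapped between genotypes. *Ms4a4a* encodes a surface protein of macrophages, most prominent in the alternatively activated state. It had 3.13, 5.90, 6.45 and 10.3 CPM in *ApoE*-/- and 2.75, 3.00, 4.10 and 5.31 CPM in WT mice, so that *ApoE*-/- replicate 1 lay among the WT values. On the log2 scale the fold change was 0.77 ± 0.37 (SE, adjusted p = 0.517 by edgeR). *Ms4a4b*, best known from T cells, had 2.48, 1.53, 3.05 and 0.998 CPM in *ApoE*-/- and 1.33, 1.03, 0.942 and 1.01 CPM in WT mice. It was the 1 gene of the family for which *ApoE*-/- replicate 4 was lowest among the *ApoE*-/- mice, with a log2 fold change of 0.90 ± 0.36 (SE, adjusted p = 0.377 by edgeR).

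*Ms4a8a*, described in macrophages of tumours and parasite infection, had 0.771, 1.36, 1.26 and 2.95 CPM in *ApoE*-/- and 0.918, 1.12, 0.776 and 1.15 CPM in WT mice. Its spread in *ApoE*-/- mice took in the whole WT range, with a log2 fold change of 0.67 ± 0.41 (SE, adjusted p = 0.647 by edgeR). *Ms4a4d* had 8.36, 11.2, 8.49 and 19.1 CPM in *ApoE*-/- and 12.1, 17.5, 11.4 and 16.0 CPM in WT mice. Of the *ApoE*-/- mice 3 lay below every WT mouse and 1, replicate 4, above every WT mouse. The log2 fold change was -0.27 ± 0.29 (SE, adjusted p = 0.816 by edgeR).

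The order of the *ApoE*-/- mice was not the same for all genes. For *Ms4a4a*, *Ms4a6b*, *Ms4a6c* and *Ms4a7* it was replicate 4, 3, 2 and 1 from high to low, which is also the order of the pan-macrophage sum. For *Ms4a4b* it was 3, 1, 2 and 4, and for *Ms4a4c* 1, 3, 4 and 2. The sum of the 11 T and NK cell genes in the files was 22.5, 11.3, 16.6 and 19.2 CPM in *ApoE*-/- replicates 1 to 4, and 8.81 to 12.6 CPM in WT mice. These orders rest on 4 mice and were not tested.

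**Figure D4:**
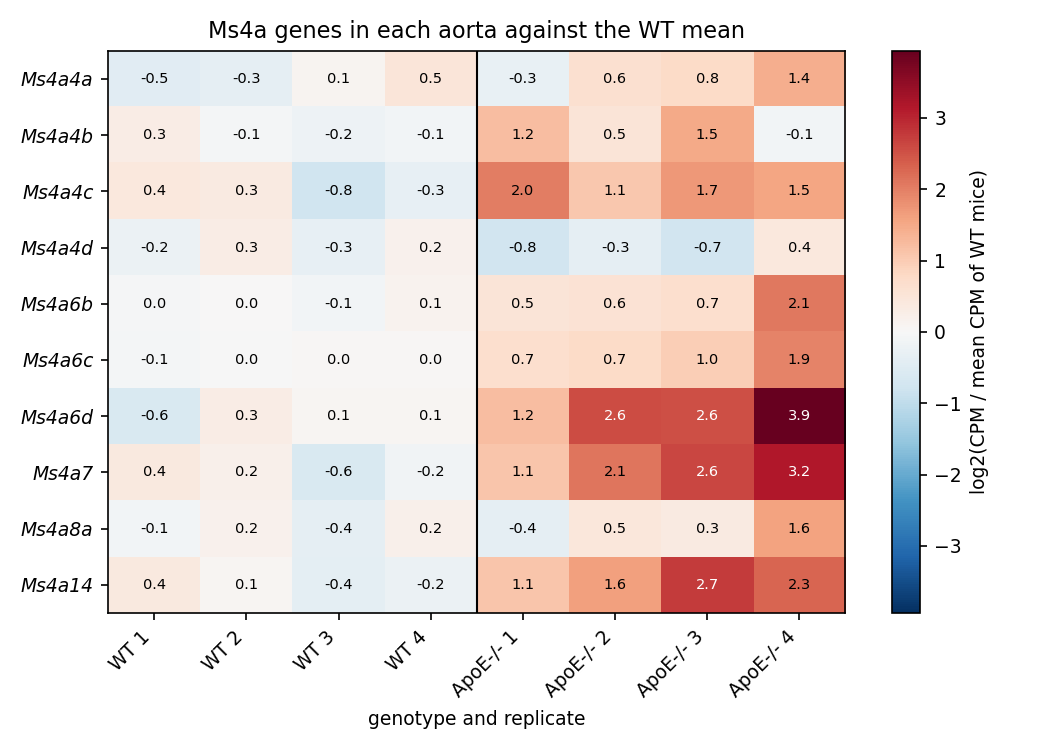
Log2 of each mouse's CPM over the mean of the 4 WT mice, for the 10 genes. The deepest colours are those of *Ms4a6d* and *Ms4a7* in *ApoE*-/- replicate 4, at 15.4 and 8.99 times the WT mean, while *Ms4a4b* is near the WT mean in that mouse and *Ms4a4d* is below it in the other 3 *ApoE*-/- mice.

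Leaving out *ApoE*-/- replicate 1 changed the calls. Without it, edgeR called 4 members as higher (*Ms4a6c*, *Ms4a6d*, *Ms4a7* and *Ms4a14*), with 593 genes called in all (3.91% of those tested) against 70 with every mouse. DESeq2 then called 7 members, and 1548 genes in all (9.18%). Without any 1 of the other 7 mice, edgeR called 0 to 17 genes in all and none of the members. DESeq2 then called 3 to 6 members among 431 to 705 genes in all. The 6 came without *ApoE*-/- replicate 4, where DESeq2 called 677 genes in all (4.12%) and edgeR 2 (0.0132%). *Ms4a6d*, *Ms4a7* and *Ms4a14* had an adjusted p under 0.05 in DESeq2 whichever mouse was left out. Sizes also moved without replicate 4: in edgeR the log2 fold change was then 0.18 ± 0.29 (SE) for *Ms4a8a*, 0.44 ± 0.34 for *Ms4a4a*, 0.58 ± 0.11 for *Ms4a6b* and 0.80 ± 0.13 for *Ms4a6c*. That of *Ms4a4d* was -0.60 ± 0.21 (SE) without replicate 4 and -0.14 without replicate 1 or replicate 3 of the *ApoE*-/- mice, and -0.16 without WT replicate 2.

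Levels were then set against the macrophage genes of the same aorta, by taking the mean log2 CPM of the 12 pan-macrophage genes from the log2 CPM of each gene. On this scale most genes of the aorta are lower in *ApoE*-/- mice, as the macrophage genes are higher there: 65.2% of all tested genes lay below WT without overlap and 0.491% above. *Ms4a6d* and *Ms4a7* were among the latter. For *Ms4a6d* knockout values ranged from -2.23 to -1.12 against -3.62 to -2.55 for WT, a mean difference of 1.25. For *Ms4a7* the ranges were -1.95 to -1.27 and -2.87 to -2.28, a mean difference of 0.96. When the leukocyte gene *Ptprc* alone was the reference, both differences stayed positive, at 1.10 and 0.80, and both sets of values overlapped between genotypes, where 0.305% of all genes lay above WT without overlap.

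*Ms4a4d* and *Ms4a8a* lay below WT without overlap on the same scale. *Ms4a4d* had -2.41 to -1.60 in *ApoE*-/- and -0.70 to 0.03 in WT mice, a difference of -1.64, and *Ms4a8a* had -5.07 to -4.67 and -4.29 to -3.83, a difference of -0.82. The other 6 genes overlapped, with differences from -0.63 (*Ms4a4a*) to 0.58 (*Ms4a14*). *Ms4a6b* and *Ms4a6c*, apart from WT in CPM, were at -0.36 and -0.24 here. Relative to *Ptprc*, *Ms4a4d* and *Ms4a8a* again lay below WT without overlap, as did 81.4% of all genes.

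**Figure D5:**
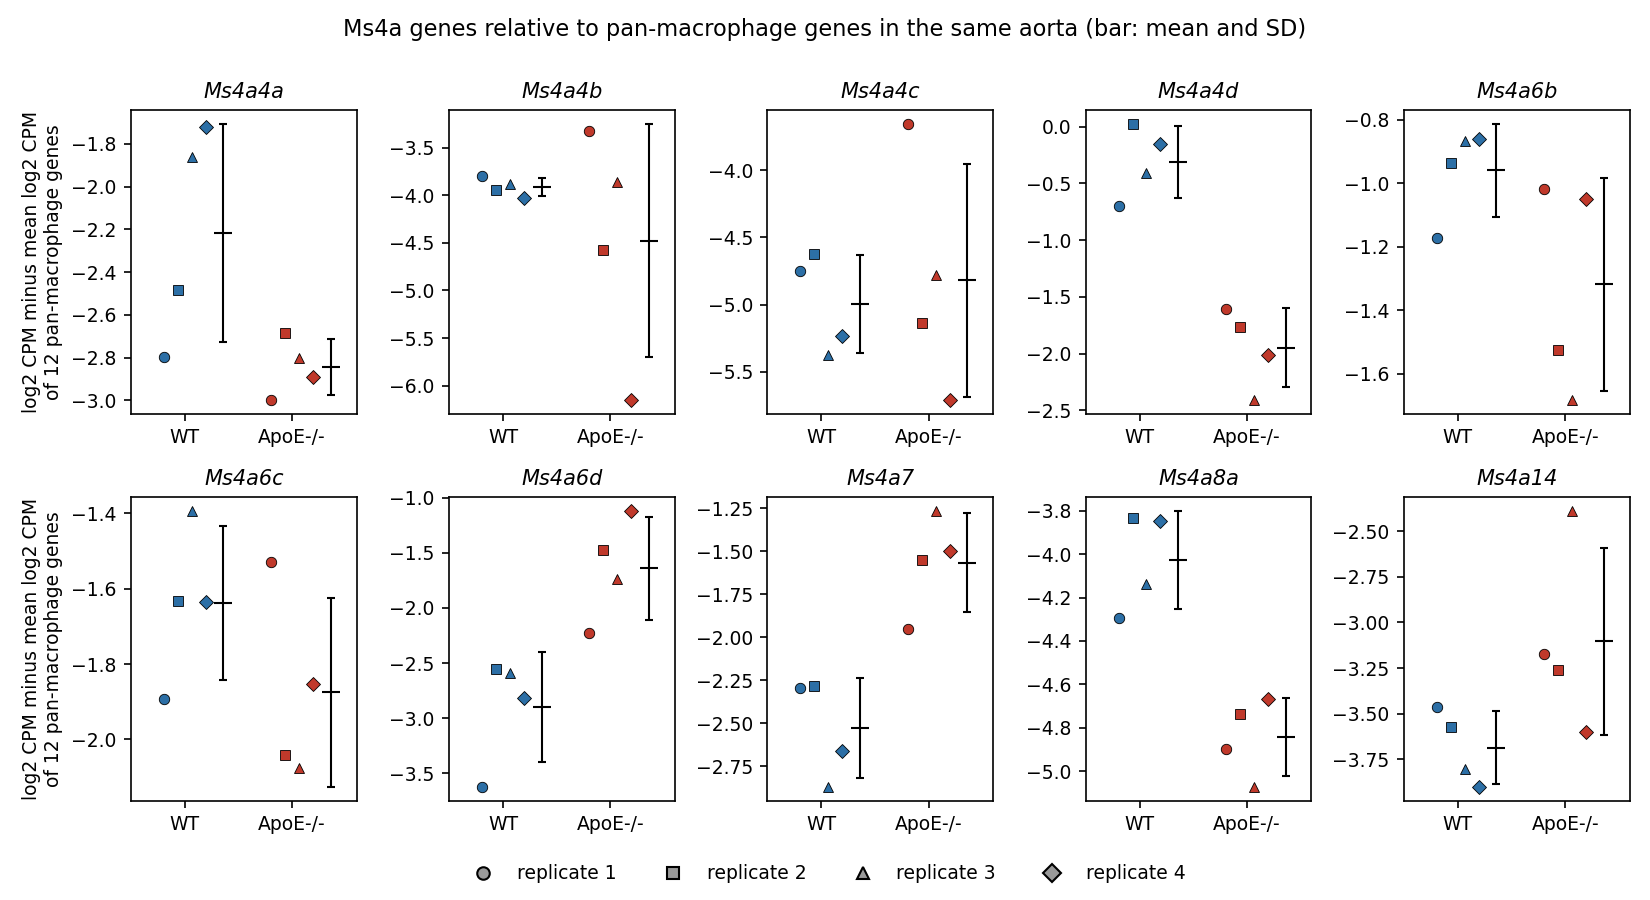
Log2 CPM of each gene minus the mean log2 CPM of the 12 pan-macrophage genes of the same aorta, with the mean and SD of the 4 mice of a genotype. *Ms4a6d* and *Ms4a7* lie above WT without overlap, *Ms4a4d* and *Ms4a8a* below it, and the other 6 genes overlap.

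Promoters were compared for the letters that the macrophage transcription factor PU.1 binds, since this factor drives many macrophage genes. *Spi1*, the gene of PU.1, was named for this search, outside the rule for naming genes. It had 10.8 ± 4.88 CPM in *ApoE*-/- and 3.58 ± 0.589 CPM in WT mice (SD, n = 4). Its log2 fold change was 1.59 ± 0.32 (SE), with adjusted p-values of 0.0705 from edgeR and 3.26e-04 from DESeq2. The 10 listed transcription factors of macrophages, *Spi1* among them, had a median log2 fold change of 0.14, with 6 positive and 4 negative. RefSeq promoters (GRCm38.p6), from 250 bases before to 50 after a start, were given for 9 of the 10 genes (all but *Ms4a6d*), with 2 starts for *Ms4a7*. GAGGAA or its complement TTCCTC was present in 4 of these 10 windows and in 28.3% of all 32851 promoters. The longer GAGGAAGT, which contains GAGGAA, was in none of the 10 and in 3.2% of all promoters. The 4 windows with a match are printed in the direction of transcription, with the match in capitals.
The *Ms4a4b* window is chr19:11443308-11443607 and that of *Ms4a4c* chr19:11407411-11407710, both on the plus strand. The *Ms4a7* window is chr19:11336097-11336396 and that of *Ms4a14* chr19:11314405-11314704, both on the minus strand.
Ms4a4b: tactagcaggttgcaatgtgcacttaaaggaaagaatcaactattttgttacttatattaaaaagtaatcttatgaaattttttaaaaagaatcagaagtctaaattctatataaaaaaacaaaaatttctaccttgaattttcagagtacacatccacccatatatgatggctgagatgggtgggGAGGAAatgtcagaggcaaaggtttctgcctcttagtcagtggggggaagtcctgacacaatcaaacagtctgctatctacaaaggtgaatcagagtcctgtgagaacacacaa
Ms4a4c: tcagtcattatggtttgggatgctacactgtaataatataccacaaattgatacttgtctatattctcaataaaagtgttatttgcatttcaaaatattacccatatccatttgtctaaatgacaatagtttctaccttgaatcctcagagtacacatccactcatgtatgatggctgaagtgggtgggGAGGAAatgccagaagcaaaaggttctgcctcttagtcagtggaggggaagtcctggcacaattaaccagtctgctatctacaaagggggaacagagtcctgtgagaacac
Ms4a7: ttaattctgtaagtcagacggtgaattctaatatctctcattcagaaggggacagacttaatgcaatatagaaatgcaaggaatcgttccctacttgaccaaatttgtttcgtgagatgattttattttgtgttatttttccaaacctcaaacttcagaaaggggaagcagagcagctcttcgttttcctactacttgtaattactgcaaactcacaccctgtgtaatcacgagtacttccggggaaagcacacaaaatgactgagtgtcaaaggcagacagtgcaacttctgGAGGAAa
Ms4a14: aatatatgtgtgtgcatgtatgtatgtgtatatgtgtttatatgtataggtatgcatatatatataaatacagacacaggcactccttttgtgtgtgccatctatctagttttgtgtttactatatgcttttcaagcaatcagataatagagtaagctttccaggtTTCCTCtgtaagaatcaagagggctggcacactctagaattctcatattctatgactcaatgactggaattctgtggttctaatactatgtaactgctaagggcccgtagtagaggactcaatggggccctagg
The *Ms4a4b* and *Ms4a4c* windows were 73.3% identical, and their matches began 64 and 61 bases before the start. Every other pair of member windows was at most 49.0% identical by the same measure. A match describes the letters only.

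Genes most like each member were sought by the root-mean-square difference of centred log2 CPM over the 8 aortas, a measure of likeness with no test. Centring was over all 8 aortas, so the genotype difference is part of the distance. Near genes therefore tend to have similar log2 fold changes, such as 2.25 to 2.35 for the 3 nearest to *Ms4a7*. *Ms4a6b* and *Ms4a6c* were among each other's 3 nearest genes, at 0.14 log2 units, and for both the nearest was *Alox5ap* (0.14 and 0.12), which encodes the activating protein of leukotriene synthesis. *Ms4a7* was nearest to *Cd84* (0.14), *Cd244a* (0.17) and *Cd300c2* (0.18), which encode leukocyte surface receptors. *Ms4a14* was nearest to *Runx1* (0.21), *Lcp1* (0.22) and *Vav1* (0.25), and *Ms4a6d* to *Clec4d* (0.32), *Adam8* (0.34) and *Lgals3* (0.34). *Ms4a6d* had no gene as near as the other members did. The measure is not scaled and grows with a gene's own spread over the aortas, so this does not set its profile apart. *Ms4a4c* was nearest to *Ifi206* (0.19), with the B cell gene *Blk* second (0.20). *Ms4a4b* was nearest to *Acr* (0.17), with the lymphocyte receptor gene *Slamf6* second (0.18). *Ms4a4a* was nearest to *Ifi207* (0.15), *Ms4a8a* to *Ptafr* (0.15) and *Ms4a4d* to *Igfbp6* (0.15).

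Of the 21 Ms4a genes in the tables, 11 were tested, and the 1 beside the members was *Ms4a1*. It had 2.36 ± 1.20 CPM in *ApoE*-/- and 1.08 ± 0.663 CPM in WT mice (SD, n = 4), with a log2 fold change of 1.12 ± 0.49 (SE, adjusted p = 0.444 by edgeR). The 10 untested genes had at most 18 read pairs in any library, *Ms4a2* of mast cells and *Ms4a3* of myeloid precursors among them, and did not pass the filter of edgeR. DESeq2 gave *Ms4a2* a log2 fold change of 0.10 ± 0.74 (SE, adjusted p = 0.994). The distant relatives *Tmem176a* and *Tmem176b* had log2 fold changes of 0.53 ± 0.18 (SE, adjusted p = 0.276 by edgeR) and 0.36 ± 0.16 (SE, adjusted p = 0.442 by edgeR), with overlap.

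Genes listed by hand as partners and pathway of MS4A proteins in macrophages were read from the same fit, and no link to MS4A proteins was tested. Of the 15 tested, 13 had a positive log2 fold change, with a median of 1.24, edgeR called 3 as higher and none as lower (0.464% of all genes called), and DESeq2 10 as higher (2.84% of all genes). The 3 were *Trem2*, a lipid receptor of macrophages (log2 fold change 4.10 ± 0.62 SE, adjusted p = 0.0434 by edgeR), and the Fc receptor genes *Fcgr4* (3.37 ± 0.50 SE, adjusted p = 0.0396 by edgeR) and *Fcgr1* (2.32 ± 0.28 SE, adjusted p = 0.0355 by edgeR). *Tyrobp*, the adaptor of *Trem2*, had 2.03 ± 0.42 (SE, adjusted p = 0.0796 by edgeR) and *Syk*, the kinase downstream, 1.06 ± 0.24 (SE, adjusted p = 0.103 by edgeR). The edgeR count of 3 was 10 without *ApoE*-/- replicate 1, 0 without any 1 of the other 7 mice and 0 with the replicate block, and limma-voom called 1. DESeq2 called 8 to 11 whichever mouse was left out. The signalling genes *Malt1* (0.24 ± 0.24 SE) and *Bcl10* (-0.06 ± 0.14 SE) overlapped between genotypes. *Card9*, also of signalling, lay above WT without overlap (1.24 ± 0.29 SE, adjusted p = 0.106 by edgeR and 0.00542 by DESeq2).

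The members lay between the macrophage lists in size. Their median log2 fold change of 1.15 compared with 2.70 for 10 foam cell genes (edgeR 3 higher, DESeq2 6), 1.56 for 12 pan-macrophage genes (1 and 9), 1.33 for 7 monocyte and neutrophil genes (1 and 3) and 0.35 for 10 genes of resident adventitial macrophages (0 and 0). Of all genes, edgeR called 0.464% in either direction and DESeq2 2.84% as higher. The foam cell calls of edgeR include *Trem2*, and its pan-macrophage call is *Fcgr1*, so both are also counted among the partner genes. Without *ApoE*-/- replicate 1 edgeR called 7 foam cell genes, 8 pan-macrophage genes and 1 resident gene, against 3.91% of all genes. DESeq2 then called 3 resident genes, against 9.18% of all genes. Without any 1 of the other 7 mice edgeR called 0 foam cell or pan-macrophage genes, and limma-voom called 0 and 1 with every mouse. Among the foam cell genes, *Mmp12*, a metalloelastase, had a log2 fold change of 5.82 ± 0.85 (SE, adjusted p = 0.0396 by edgeR) and *Itgax*, an integrin of macrophages and dendritic cells, 4.44 ± 0.61 (SE, adjusted p = 0.0380 by edgeR). The most abundant foam cell gene, *Lpl* of lipoprotein lipase, which fat and muscle also express, had -0.52 ± 0.42 (SE, adjusted p = 0.760 by edgeR) and overlapped between genotypes, as did *Cd9*, *Fabp5* and *Cd63*, which are named outside the rule, after their values were seen. Among the resident genes, *Mrc1*, the mannose receptor, had 0.92 ± 0.36 (SE, adjusted p = 0.359 by edgeR). It was the only 1 of the 10 without overlap, against 5.41% of all genes above WT without overlap. *Gas6*, the most abundant resident gene, had 0.58 ± 0.23 (SE, adjusted p = 0.377 by edgeR) and overlapped between genotypes. The median was 0.73 for 9 T and NK cell genes and 1.29 for 9 B cell genes, with 0 called by edgeR in either, and 0.68 for 7 mast cell genes, also with 0. DESeq2 called 2 of the B cell genes as higher, *Cd22* and *Blk*, and 0 of the T and NK cell and mast cell genes. Summed B cell genes reached 36.7 CPM in *ApoE*-/- and 15.1 CPM in WT mice without overlap, and mast cell genes from 36.0 to 101 and 38.6 to 76.1 CPM. The part of these cells in the *Ms4a* levels was not tested.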

How the data were processed

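RNA from 8 aortas (4 *ApoE*-/-, 4 WT, 1 library per mouse) had been made into stranded, ribodepleted libraries and sequenced as paired reads of 50 bases. The authors deposited raw counts per gene, without normalization. TopHat2, HTSeq and GRCm38 (mm10) are named in the submitters' processing notes, and the annotation is not given in the sources used here. Pairs assigned to no gene were 64.4% to 67.7% of an *ApoE*-/- library and 69.8% to 72.1% of a WT library, and were left out. These shares did not overlap between genotypes, and their part in the results was not tested.

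Counts were filtered (filterByExpr), TMM-normalized and tested with edgeR 4.0.16 (quasi-likelihood F test, robust, genotype as the only factor, two-sided) in R 4.3.3, with Benjamini-Hochberg adjustment over 15077 genes and a threshold of 0.05. The SE is the size of the log2 fold change over the square root of F. The study's DESeq2 (1.42.0, all genes) and limma-voom (limma 3.58.1) were alternatives, with other scalings, filters, no robust estimation, a replicate block, and each mouse left out. Relative levels used log2 CPM with a prior count of 2. The scripts were tested on simulated data. Sequences came from GENCODE M21 and RefSeq (Python 3.11.15, edlib alignments, identity over the longer sequence).

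The members and lists were chosen with earlier results of these data known. All 10 members, and tested genes of the other-Ms4a and partner lists, may be named, and in other lists the 2 genes with the smallest p and the 1 with the highest mean CPM. *Spi1*, *Cdh5*, *Cd9*, *Fabp5* and *Cd63* fall outside this rule. Likeness names the 3 nearest genes of each member. *Trac* and one partner gene are not analysed here.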

Additional observations from a re-analysis of the deposited data

Results flagged for a closer look

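In a group of 4 mice, a mouse was singled out where its gap to the nearest other, over the range of the group, was above the critical value of Dixon's test. Of 52 groups of values examined 6 passed, where chance gives about 1 in 20, or 2.6. *ApoE*-/- replicate 4 was singled out for *Ms4a6b* (0.938) and *Ms4a6c* (0.847). It was also singled out for the summed CPM of the partner genes (0.951) and of the foam cell genes (0.856), and WT replicate 4 for the same sums (0.876 and 0.924). In WT replicate 4 a single gene made up most of each sum: *Lpl* had 4180 of 4434 CPM of the foam cell genes and *Trf* 670 of 1018 CPM of the partner genes. In *ApoE*-/- replicate 4 *Lpl* had 2749 of 5559 CPM and *Trf* 769 of 1554 CPM. *Mmp12* and *Trem2* had 0.527 and 1.24 CPM in WT replicate 4.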

How the results depend on the processing

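The log2 fold change of each member kept its sign under every alternative run. DESeq2 called 721 genes, 5 members and 28 of the 79 tested genes of the other Ms4a, partner, macrophage and leukocyte lists, against 70, 0 and 6 in edgeR. limma-voom called 29, 0 and 2, and the replicate block 2, 0 and 0. Leaving out 1 mouse at a time, over edgeR and DESeq2, gave 0 to 1548 genes, 0 to 7 members and 0 to 36 list genes, and the 4 members called by edgeR came without *ApoE*-/- replicate 1. Set against *Ptprc* alone, 0 members lay above WT without overlap, against 2. Other scalings, filters and no robust estimation called 50 to 74 genes and 0 members. The labels do not say whether same-numbered mice are paired, and the correlations that follow are too few to settle it. Deviations of same-numbered libraries correlated at -0.448 to 0.316, and 1 of 4 numbers had its best match in its own. *Ms4a4c* was not tested where at least 10 counts were required in every library, having 5 and 8 in a pair of WT libraries.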
